A study of Homo sapiens with 18 samples.

Results

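Gene counts of 6 poly(A)-selected, stranded, paired-end mRNA libraries were compared, 3 from the HCT116 line and 3 from the MCF10A line, each grown alone and without irradiation (NIR). The libraries were chosen by their labels and are 6 of the 18 libraries of the series, which also holds cultures given 10 Gy (IR) and mixed cultures of both lines. HCT116 comes from a human colorectal carcinoma and was unlabelled, described as p53-null and grown in McCoy's 5A medium with fetal bovine serum. MCF10A comes from non-tumorigenic human breast epithelium, carried a histone H2B-GFP reporter and was grown in F12:DMEM with horse serum, EGF, hydrocortisone, cholera toxin and insulin. Line, medium and reporter therefore changed together, and a difference between the groups cannot be told apart among them. The replicates are described as biological. The titles put the harvest at day 2, whereas the series description puts it at 72 h after irradiation.

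Epithelia differ in the keratins, junction proteins and transcription factors they use. Gut epithelium is a single layer whose cells make the simple keratins KRT8, KRT18, KRT19 and KRT20, and its identity is set by factors such as CDX2 and HNF4A. The breast duct has a luminal layer with simple keratins and GATA3, and a basal layer with KRT5, KRT14, TP63 and the laminins that anchor it to the basement membrane. MCF10A in culture is known for basal features, and HCT116 for mismatch repair deficiency and for an activating mutation of CTNNB1, the effector of Wnt signalling.

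The HCT116 libraries held 27.6 to 34.6 M counts (M for 1e+06) and the MCF10A libraries 29.3 to 35.5 M. Counts were found for 21519 to 22327 genes in HCT116 and for 19356 to 19813 in MCF10A. The 13 mitochondrially encoded protein genes took 7.26% ± 0.191 of counts in HCT116 and 4.60% ± 0.0867 in MCF10A (SD, n = 3), a difference of 2.66 percentage points with no overlap (2-sided exact permutation test, p = 0.10, the smallest that 3 against 3 libraries allow). Levels below are CPM, counts per 1e+06 counts of the library, which are not corrected for gene length, so they compare libraries for 1 gene and not genes with each other. Levels are in the order of replicates 1, 2 and 3.

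Most expressed genes differed between the lines. Of 16568 genes tested with edgeR's quasi-likelihood test, 12389 (74.8%) had a Benjamini-Hochberg adjusted p under 0.05, 6415 (38.7%) higher and 5974 (36.1%) lower in HCT116. A change of at least 2-fold was called, on the same test, for 3947 genes higher (23.8%) and 2399 lower (14.5%) in HCT116, or 38.3% in all. The libraries of the lines did not overlap for 12876 genes (77.7%). Lack of overlap, where given below, was therefore the usual outcome. The median log2 fold change, HCT116 minus MCF10A, was 0.05 over all genes tested. With upper-quartile factors it was 0.25, and 62.4% of the called genes were then higher in HCT116 against 51.8%. Fold changes below are on the first of these scales, "called" means an adjusted p under 0.05, and counts of gene lists use called genes of at least 2-fold.

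**Figure D1:**
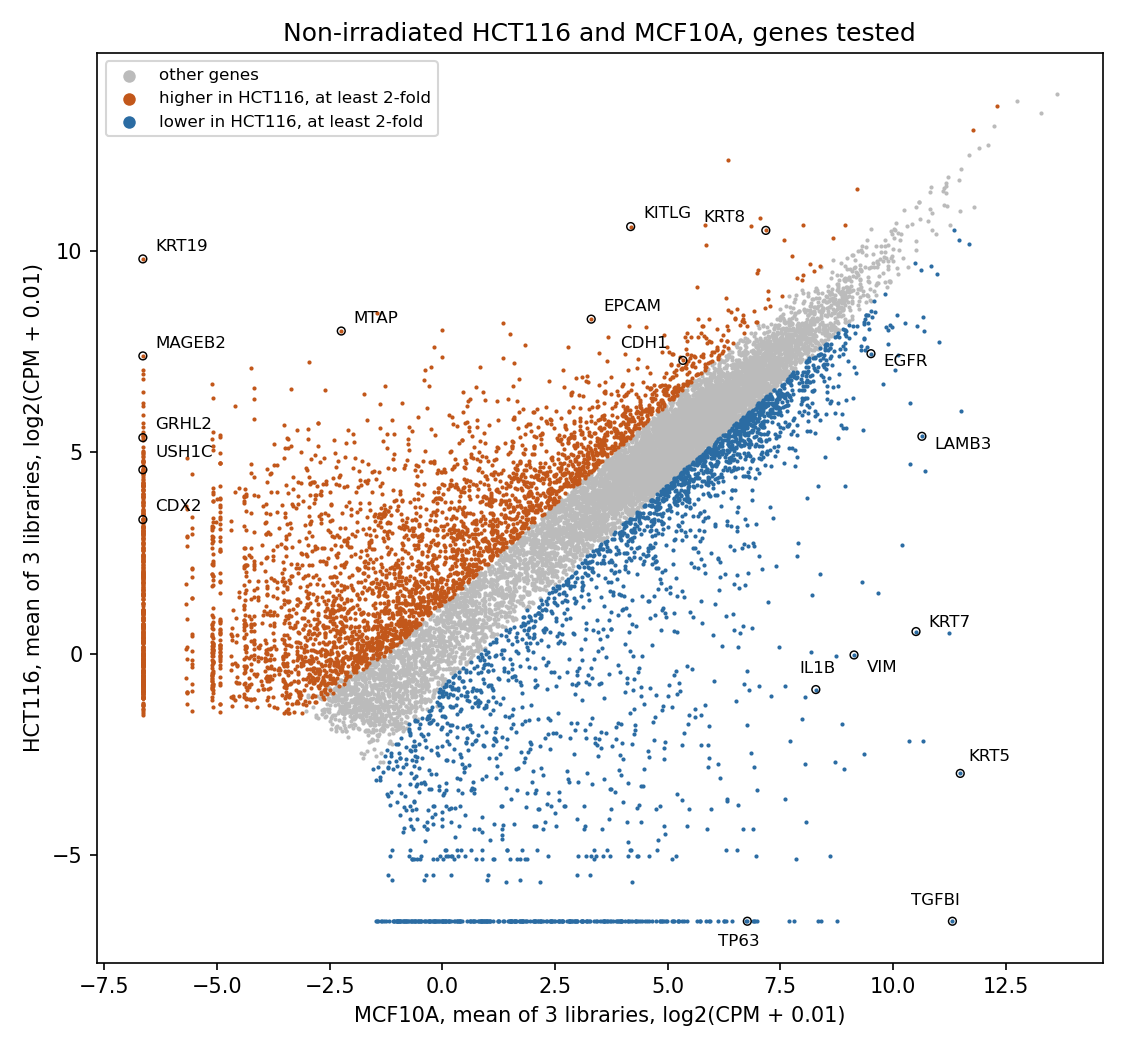
Each point is a gene tested, at its mean level over the 3 MCF10A libraries (x axis) and the 3 HCT116 libraries (y axis), both as log2(CPM + 0.01). Orange and blue mark the 3947 genes higher and 2399 lower in HCT116 by at least 2-fold (1 gene is not drawn), and the straight rows at the left and bottom edges are genes without counts in 1 line.

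Among the genes that separated the lines fully, 97 had a mean of at least 10 CPM in HCT116 and no count in any MCF10A library, which is 0.984% of the 9855 genes at that level in HCT116. The reverse held for 80 genes, 0.872% of the 9179 genes at that level in MCF10A. The naming rule took the highest levels on each side.

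KRT19, a simple-epithelium keratin (chromosome 17, 41523617 to 41528308, GRCh38.p14), was at 720.4, 996 and 943 CPM in the HCT116 libraries and at 0 in all 3 MCF10A libraries. Against a floor of 3 counts over the 3 libraries it was at least 29190.0-fold higher in HCT116. MAGEB2, a cancer-testis antigen gene, was at 166, 171 and 165 CPM, at least 5504-fold higher. GTSF1, a gene of the germline piRNA pathway, was at 112, 120.0 and 133 CPM, at least 4004-fold higher. MYH14, a nonmuscle myosin heavy chain, averaged 132 ± 10.8 CPM, CYBA, a subunit of the NADPH oxidase, 111 ± 3.09 CPM, and ZNF518B 89.98 ± 5.80 CPM (SD, n = 3). All 6 had counts in each HCT116 library and none in MCF10A.

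In the other direction, TGFBI, a matrix protein gene inducible by TGF-beta (chromosome 5, 136028988 to 136063818), was at 2779.7, 2475 and 2411 CPM in MCF10A and at 0 in all 3 HCT116 libraries, at least 80377-fold lower in HCT116. SFRP1, a secreted Wnt antagonist, was at 444, 429 and 429 CPM in MCF10A, at least 13656-fold lower in HCT116. CSF3, which encodes granulocyte colony-stimulating factor, averaged 340.2 ± 7.38 CPM in MCF10A, and NNMT, nicotinamide N-methyltransferase, averaged 323 ± 20.96 CPM (SD, n = 3). BNC1, a zinc finger protein of basal keratinocytes, averaged 223 ± 2.07 CPM. None of these 5 genes had a count in HCT116. These bounds cover counting error only, and would be 2-fold lower if read mates were counted singly.

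Zinc finger genes named ZNF made up 9 of the 80 genes found in MCF10A only (11.25%), 3 of the 97 found in HCT116 only (3.09%) and 179 of the 8539 genes at 10 CPM or more in both lines (2.10%). Of the 97 genes found in HCT116 only, 90 were protein coding, as were 77 of the 80 found in MCF10A only. Among the 8539 genes of both lines, 8383 were protein coding. Long noncoding RNA genes numbered 7, 3 and 80 in these sets.

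The start regions of 4 of these genes are shown because these genes have counts in 1 line only, and CpG sites, where DNA can be methylated, are in capitals. Each window runs from 250 bases before to 50 after the start, on the gene's strand, from RefSeq (GRCh38.p14). The table holds no entry for KRT19.
MAGEB2 (chrX:30215313-30215612, + strand): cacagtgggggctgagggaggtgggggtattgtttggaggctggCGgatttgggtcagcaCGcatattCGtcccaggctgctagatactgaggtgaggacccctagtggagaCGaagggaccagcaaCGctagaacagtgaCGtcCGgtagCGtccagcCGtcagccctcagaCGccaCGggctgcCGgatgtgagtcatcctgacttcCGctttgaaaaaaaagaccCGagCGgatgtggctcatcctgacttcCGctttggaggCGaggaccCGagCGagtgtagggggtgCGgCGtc
GTSF1 (chr12:54473553-54473852, - strand): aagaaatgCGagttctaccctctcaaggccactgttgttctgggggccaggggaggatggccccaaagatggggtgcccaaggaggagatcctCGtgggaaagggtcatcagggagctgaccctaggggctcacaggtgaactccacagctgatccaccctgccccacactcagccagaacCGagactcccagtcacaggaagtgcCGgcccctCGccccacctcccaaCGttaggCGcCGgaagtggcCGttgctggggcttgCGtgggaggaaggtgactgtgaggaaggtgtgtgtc
TGFBI (chr5:136028738-136029037, + strand): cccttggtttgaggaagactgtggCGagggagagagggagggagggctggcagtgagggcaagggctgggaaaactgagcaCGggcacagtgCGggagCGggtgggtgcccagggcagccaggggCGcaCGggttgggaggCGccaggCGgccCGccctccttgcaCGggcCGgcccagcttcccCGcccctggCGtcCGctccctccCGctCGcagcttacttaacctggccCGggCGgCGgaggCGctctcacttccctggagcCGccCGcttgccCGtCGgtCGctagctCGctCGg
S100A9 (chr1:153357604-153357903, + strand): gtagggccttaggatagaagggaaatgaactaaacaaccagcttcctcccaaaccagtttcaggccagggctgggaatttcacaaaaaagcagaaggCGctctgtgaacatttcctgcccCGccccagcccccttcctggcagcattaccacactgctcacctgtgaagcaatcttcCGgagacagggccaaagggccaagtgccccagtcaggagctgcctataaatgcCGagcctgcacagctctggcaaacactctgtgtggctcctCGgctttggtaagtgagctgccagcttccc

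The 300-base windows held 21 CpG sites for MAGEB2, 10 for GTSF1, 27 for TGFBI and 5 for S100A9. An entry was found for 58 of the 97 genes of HCT116 only and for 62 of the 80 of MCF10A only. Their windows held a median of 25 and 22 CpG sites, against 27 for 7128 genes at 10 CPM or more in both lines and 20 for all 19164 entries. Windows with under 10 CpG sites made up 15.5% of the HCT116-only genes, 24.2% of the MCF10A-only genes, 6.66% of the genes of both lines and 32.3% of all. The letters TATAAA, on either strand, were in 6.90% of the windows of HCT116-only genes, 14.5% of those of MCF10A-only genes and 4.63% of those of both lines, with 10.1% over all entries. The letters TGANTCA, also on either strand, were in 6.90%, 9.68%, 3.76% and 6.74%. These are letter counts, and no methylation was measured here.

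Most basal keratins were lower in HCT116 and most simple keratins higher, with exceptions in both lists. Of 10 basal and stratified-epithelium keratins tested, 7 were lower and 2 higher in HCT116 by at least 2-fold (14.5% and 23.8% over all genes), with a median log2 fold change of -6.58. KRT5, the basal-cell partner of KRT14 (chromosome 12, 52514575 to 52520394), was at 2962, 2957 and 2729 CPM in MCF10A and at 0.289, 0.0622 and 0 CPM in HCT116, a log2 fold change of -14.62 (SE 0.17, adjusted p = 1.1e-20). KRT14 was at 509, 457 and 429 CPM in MCF10A and at 0.347, 0.155 and 0.362 CPM in HCT116. Every MCF10A library was above every HCT116 library for both, and the lines did not overlap for 77.7% of all genes tested. KRT17 had a log2 fold change of -12.04 and KRT6A, a keratin of activated keratinocytes with near-identical copies, one of -13.08. KRT15 was on the other side, at 30.3 ± 5.75 CPM in HCT116 and 8.74 ± 0.969 CPM in MCF10A.

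Of 6 simple-epithelium keratins, 5 were higher in HCT116 and 1 lower, with a median of 4.15. KRT8 was at 1417, 1456 and 1472 CPM in HCT116 and at 136, 158 and 141 CPM in MCF10A (log2 fold change 3.12, SE 0.063, adjusted p = 1.1e-17). Its partner KRT18 was at 396, 393 and 389.9 CPM in HCT116 and at 146, 169 and 147 CPM in MCF10A (log2 fold change 1.15). Both were present in both lines and did not overlap. KRT7, a keratin of breast and other ducts, was the member that was lower in HCT116, at 1.97, 1.15 and 1.23 CPM against 1458, 1496 and 1426 CPM in MCF10A (log2 fold change -10.15, SE 0.11). KRT81, a hair keratin outside the lists, averaged 1.41 ± 1.01 and 2432 ± 121 CPM in HCT116 and MCF10A. It has close paralogs, among which reads can be split.

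Basal mammary genes other than keratins were lower in HCT116 for 13 of 19 tested and higher for 1, with a median log2 fold change of -1.96. TP63, the master transcription factor of basal epithelium, was at 104, 115 and 108 CPM in MCF10A and had no count in HCT116, at least 3428-fold lower. LAMA3 and LAMB3, which encode chains of laminin-332, averaged 1681 ± 56.9 and 1598 ± 24.2 CPM in MCF10A and 23.2 ± 3.80 and 41.9 ± 4.85 CPM in HCT116. Their log2 fold changes were -6.38 and -5.45. The hemidesmosome collagen COL17A1 had one of -7.72 and S100A2, a target of p63, one of -7.71. NGFR, the low-affinity nerve growth factor receptor, was higher in HCT116, at 23.05 ± 1.39 against 0.342 ± 0.165 CPM.

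Luminal mammary genes were divided: of 20 listed, 9 could be tested, 4 higher and 4 lower in HCT116. GATA3, the luminal master factor, was low in both lines, at 2.00, 2.61 and 2.90 CPM in HCT116 and 6.53, 5.86 and 7.45 CPM in MCF10A (log2 fold change -1.60, SE 0.21). ESR1, the estrogen receptor, was at 0.225 ± 0.156 and 1.45 ± 0.276 CPM (log2 fold change -2.83, adjusted p = 8.2e-05). MUC1 was lower in HCT116 as well (-3.09), whereas ERBB3 (2.62) and EHF (1.88), an epithelial ETS factor, were higher.

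The intestinal genes were present in part. Of 14 intestinal transcription factors tested, 8 were higher in HCT116, 2 lower and 4 not called, with a median of 2.64. Of these 14, 5 had no count in MCF10A and passed the filter on low counts through HCT116 alone, so their direction was fixed. CDX2, which specifies hindgut epithelium, was at 9.03, 9.73 and 11.3 CPM in HCT116 and had no count in MCF10A, at least 329-fold higher. FOXA3, also without counts in MCF10A, averaged 6.85 ± 1.16 CPM in HCT116. HNF4A, a factor of differentiated enterocytes, was at 0.521, 0.901 and 1.01 CPM in HCT116 and 0.176, 0.451 and 0.683 CPM in MCF10A, groups that overlapped and were not called (log2 fold change 0.70, SE 0.53, adjusted p = 0.241). CDX1 had no count in any of the 6 libraries. KLF5 (-1.92) and VDR (-2.28), the vitamin D receptor, were lower in HCT116.

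Of 35 brush border, secretory and surface genes of the intestine, only 14 passed the filter on low counts, which a gene high in 1 line can pass through that line alone. Among them 10 were higher in HCT116 and 1 lower. USH1C, a brush border scaffold protein, averaged 23.6 ± 1.02 CPM in HCT116, and DPP4, a brush border peptidase, 18.00 ± 3.33 CPM. Neither had a count in MCF10A. CA2, a carbonic anhydrase, had a log2 fold change of 3.76. CDH17, the liver-intestine cadherin, was at 0.723, 0.715 and 0.398 CPM in HCT116 and at 0 in MCF10A. VIL1, which encodes villin, was at 0.376, 0.155 and 0 CPM in HCT116 and at 0.0294, 0.0563 and 0.171 CPM in MCF10A, too low to test. The crypt stem cell receptor LGR5, at 0.231, 0.249 and 0.0362 CPM in HCT116 and 0 in MCF10A, was too low as well. ANPEP, a brush border aminopeptidase, was lower in HCT116, at 0.0868, 0.404 and 0.145 against 1334, 1279 and 1309 CPM (log2 fold change -12.76, SE 0.13).

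**Figure D2:**
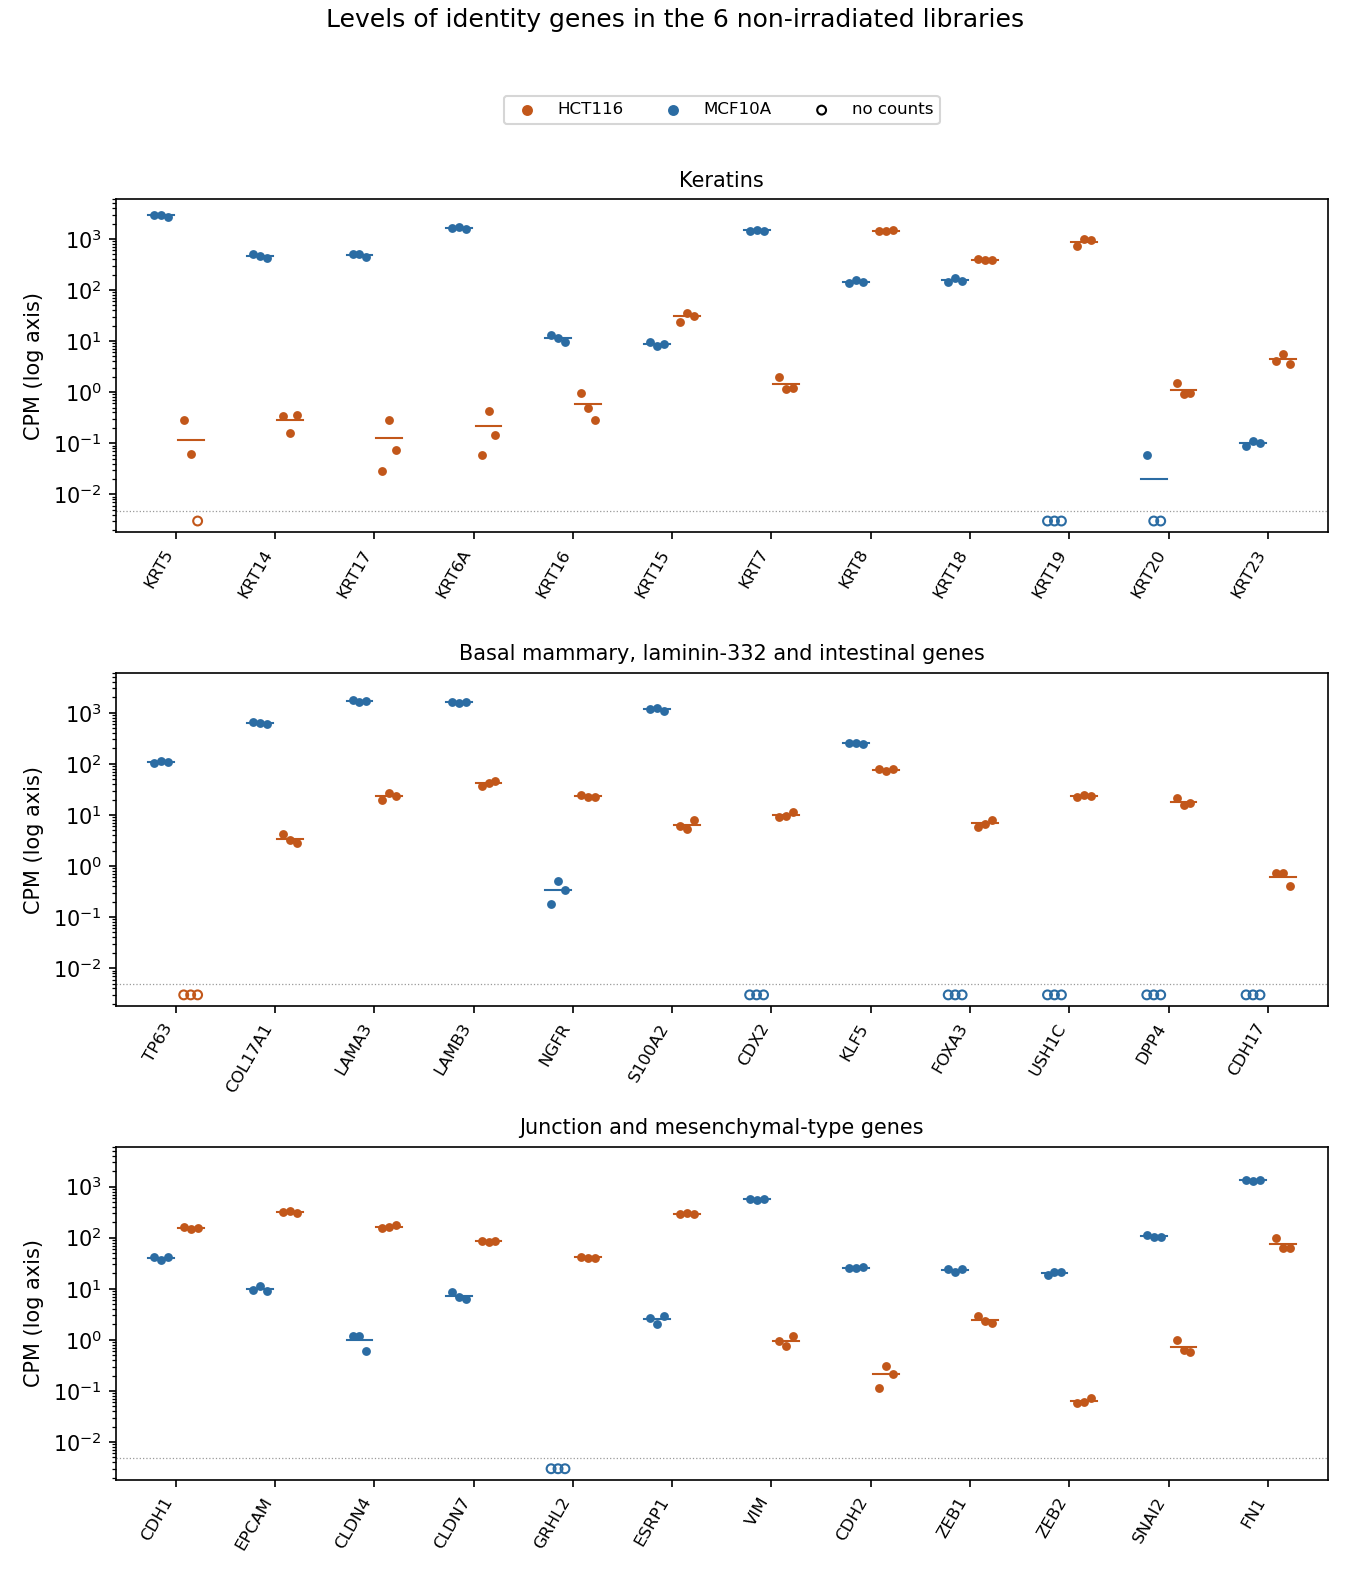
Level of 36 genes in each of the 3 HCT116 (orange) and 3 MCF10A (blue) libraries in CPM on a log axis, with short lines at the group means and open circles under the dotted line for libraries without counts. KRT5, TP63 and VIM are high in MCF10A only, and KRT19, CDX2 and GRHL2 have counts in HCT116 only.

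Junction genes were mostly higher in HCT116 and genes of the mesenchymal type mostly lower. Of 26 epithelial adhesion and tight junction genes, 16 were higher in HCT116 and 2 lower, with a median log2 fold change of 2.55. CDH1, which encodes E-cadherin, was at 162, 149 and 153 CPM in HCT116 and 41.8, 36.9 and 42.7 CPM in MCF10A (log2 fold change 1.74, SE 0.065, adjusted p = 5.7e-14). EPCAM, an adhesion molecule of simple epithelia, was at 314, 328 and 302 CPM in HCT116 and at 9.47, 11.2 and 8.98 CPM in MCF10A (log2 fold change 4.79). Both were counted in both lines, with every HCT116 library above every MCF10A library. GRHL2, a factor that maintains epithelial junctions, averaged 40.97 ± 0.154 CPM in HCT116 and had no count in MCF10A. ESRP1, an epithelial splicing regulator, averaged 295 ± 4.80 and 2.55 ± 0.488 CPM (log2 fold change 6.67). CLDN4 had a log2 fold change of 7.14 and the GTPase gene RAB25 one of 10.69. CLDN1 (-5.22) was lower in HCT116.

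Of 15 genes of mesenchymal-type cytoskeleton, adhesion and transcription, 12 were lower in HCT116 and 2 higher, with a median of -3.46. VIM, the intermediate filament vimentin, was at 0.955, 0.746 and 1.19 CPM in HCT116 and 573, 555 and 561 CPM in MCF10A (log2 fold change -9.40, SE 0.095, adjusted p = 5.2e-21). CDH2, which encodes N-cadherin, was at 0.116, 0.311 and 0.217 CPM in HCT116 and at 25.9, 25.1 and 27.2 CPM in MCF10A. For VIM and CDH2 all 3 HCT116 libraries were far below the MCF10A libraries. The repressors of E-cadherin ZEB1, ZEB2 and SNAI2 had log2 fold changes of -3.46, -8.44 and -7.38, and FN1, fibronectin, one of -4.34. SNAI1, of the same repressor family, was higher in HCT116 (1.92). Of 10 desmosome genes, 2 were higher and 2 lower (23.8% and 14.5% over all genes). DSG3, a basal-layer desmoglein, averaged 124 ± 4.81 CPM in MCF10A and 0.0207 ± 0.0359 CPM in HCT116, and JUP, plakoglobin, had a log2 fold change of 1.17.

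HOX genes, which record position along the body axis, differed in both directions, also within the HOXA cluster. Of 39 listed, 29 passed the filter, 17 higher and 9 lower in HCT116 (23.8% and 14.5% over all genes), with a median log2 fold change of 1.83. Of these 29, 4 had no count in MCF10A and passed the filter through HCT116 alone, so their direction was fixed. HOXB7 was at 21.7, 26.4 and 27.9 CPM and HOXB8 at 26.4, 32.6 and 34.1 CPM in the HCT116 libraries, and neither had a count in MCF10A. HOXA13, the most posterior gene of its cluster, was at 16.3, 19.8 and 14.8 CPM in HCT116 and also had no count in MCF10A. HOXB13 averaged 12.5 ± 1.77 and 0.440 ± 0.230 CPM. HOXB5, HOXB6 and HOXB9 had log2 fold changes of 9.16, 4.79 and 5.74. HOXC8 was lower in HCT116, at 1.53, 2.33 and 2.50 against 15.97, 15.8 and 16.1 CPM (log2 fold change -3.12, SE 0.17), as were HOXC11 (-3.76) and HOXA5 (-1.36). Among HOXA genes, HOXA2 to HOXA5 had negative fold changes and HOXA6 to HOXA13 positive ones. No HOXD gene had a count in MCF10A, and HOXD8 averaged 6.69 ± 0.400 CPM in HCT116.

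**Figure D3:**
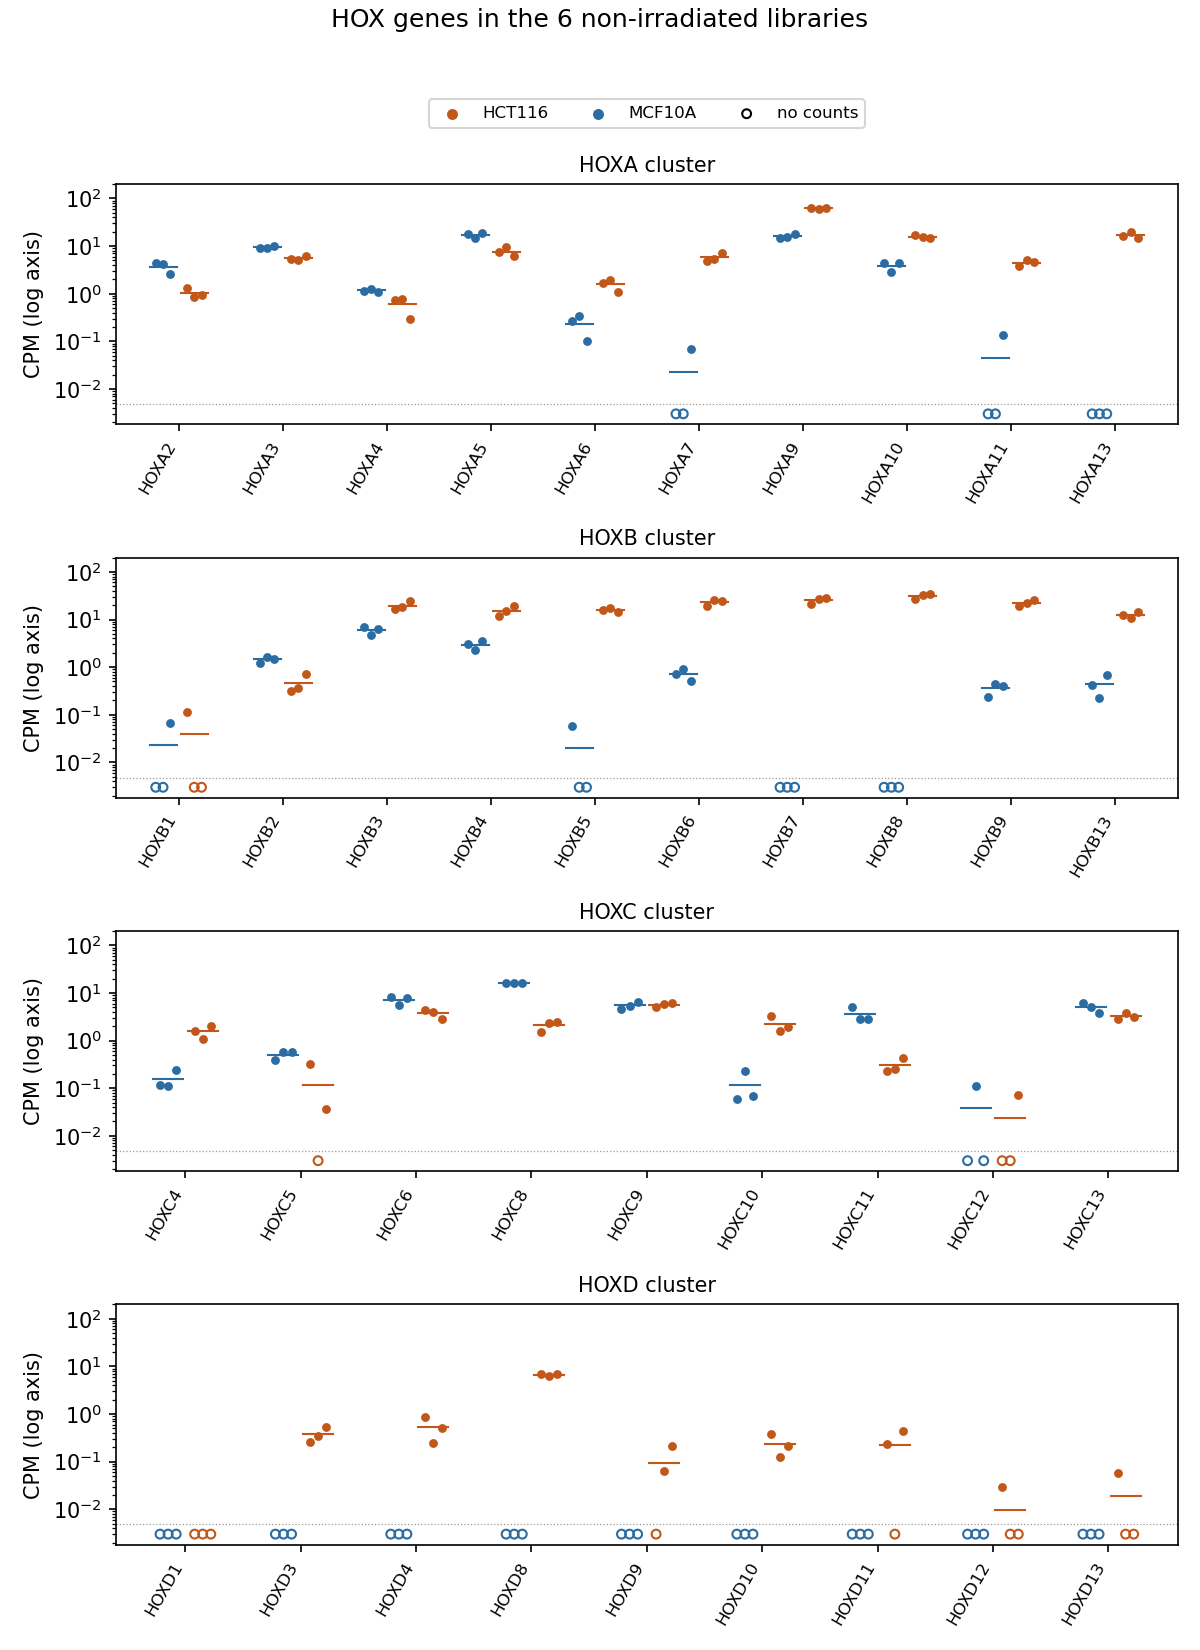
Level of 38 of the 39 HOX genes in each HCT116 (orange) and MCF10A (blue) library, in CPM on a log axis, by cluster, with short lines at the group means and open circles for libraries without counts. HOXB5 to HOXB13 and HOXA6 to HOXA13 are higher in HCT116, HOXC8 and HOXC11 are higher in MCF10A, and MCF10A has only open circles for HOXD.

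Matrix genes were lower in HCT116 for 24 of 34 collagens, laminins and matricellular proteins tested and higher for 7, with a median of -2.28. THBS1, thrombospondin 1, was at 28.4, 23.5 and 25.7 CPM in HCT116 and 1366, 1308 and 1332 CPM in MCF10A (log2 fold change -5.89, SE 0.071). COL4A1 and COL4A2, the main basement membrane collagen chains, had log2 fold changes of -10.04 and -10.95. COL6A2 (8.93) and COL18A1 (5.17) were higher in HCT116. Of 19 integrins, 11 were lower and 2 higher, with a median of -1.14. ITGA6, which pairs with ITGB4 in hemidesmosomes, averaged 257 ± 10.9 and 1646 ± 35.6 CPM, whereas ITGB4 itself had a log2 fold change of -0.65. ITGB6, which activates latent TGF-beta, had one of -8.16.

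Secreted proteases and their inhibitors differed by family. Of 15 kallikrein-related peptidases, 8 passed the filter on low counts. They passed through HCT116 alone, as the list summed to at most 0.353 CPM in a MCF10A library, so that all 8 were higher was fixed by the filter. Among them were KLK7 (26.7 ± 4.89 CPM, with no count in MCF10A) and KLK6 (log2 fold change 8.23). Of 10 clade B serpins, 7 were lower and 1 higher. SERPINB5, maspin, had a log2 fold change of -3.38, and SERPINB9, an inhibitor of granzyme B, one of 11.88, at 115, 96.9 and 96.8 CPM in HCT116. Of 17 plasminogen activator and metalloproteinase genes, 10 were lower and 3 higher, with MMP14, a membrane-bound metalloproteinase, at -4.38. Of 14 S100 genes, 11 were lower and 2 higher, with a median of -2.57. S100A8 averaged 119 ± 7.90 CPM in MCF10A and 0.0386 ± 0.0668 CPM in HCT116, and its partner S100A9 was at 189, 220.2 and 211 CPM in MCF10A and had no count in HCT116. Of 10 cornified envelope genes, 7 were lower and 3 higher in HCT116.

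Wnt pathway targets were higher in HCT116 for 13 of 21 tested and lower for 3 (23.8% and 14.5% over all genes), with a median log2 fold change of 2.32. AXIN2, a feedback inhibitor of the pathway, was at 14.7, 16.3 and 14.6 CPM in HCT116 and 0.235, 0.0563 and 0.0683 CPM in MCF10A (log2 fold change 6.73, SE 0.29, adjusted p = 4.2e-13). NOTUM and NKD2, further feedback inhibitors, averaged 11.1 ± 0.708 and 11.1 ± 1.82 CPM and had no count in MCF10A. These 2 genes passed the filter on low counts through HCT116 alone, so their direction was fixed. SOX9 had a log2 fold change of 4.61. MYC went the other way, at 271, 258 and 256 CPM in HCT116 and 365, 357 and 376 CPM in MCF10A (log2 fold change -0.68, SE 0.049), and LEF1, a nuclear partner of beta-catenin, was lower in HCT116 too (-6.50).

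In the EGF family, 4 of 14 genes were higher and 6 lower in HCT116, with a median of -0.08. The receptor EGFR was at 161, 180.1 and 180.4 CPM in HCT116 and 750.4, 695 and 746 CPM in MCF10A (log2 fold change -2.27, SE 0.06), with no overlap. The ligand EREG was higher in HCT116 (1.90) and the ligands AREG (-1.89) and EPGN (-7.51) lower. Of 19 genes of ERK feedback and output, 4 were higher and 2 lower (23.8% and 14.5% over all genes). DUSP5, an ERK phosphatase, was at 2.41 and SPRY2 at -1.67. EGF was in the MCF10A medium only, as described.

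Of 32 TGF-beta and BMP genes, 7 were higher and 10 lower (23.8% and 14.5% over all genes), with a median of -0.13. The receptor TGFBR2 averaged 48.7 ± 2.38 CPM in HCT116 and 497 ± 23.9 CPM in MCF10A (log2 fold change -3.55). The ligands INHBA (-10.64) and TGFB2 (-7.43) were lower, and the ligand BMP4 (5.75) and the BMP target ID2 (6.71) higher in HCT116. BMP7 had no count in MCF10A and averaged 14.2 ± 1.09 CPM in HCT116, while BMP2 had none in HCT116 and averaged 11.6 ± 1.18 CPM in MCF10A. Of 20 Notch genes, 10 were higher and 3 lower, with the receptor NOTCH3 at 9.93, the target NRARP at 3.93 and the ligand JAG1 at -1.63.

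Some of the following lists touch components of the media. Line, medium and reporter changed together, so their parts in these differences cannot be told apart. Hydrocortisone, in the MCF10A medium, is a glucocorticoid. Of 17 glucocorticoid-responsive genes, with the receptor among them, 11 were lower and 2 higher in HCT116, with a median of -2.23. The receptor gene NR3C1 was at 56.3, 47.3 and 43.7 CPM in HCT116 and 182, 175 and 187 CPM in MCF10A (log2 fold change -2.08, SE 0.074). FKBP5, a chaperone of that receptor, averaged 206 ± 2.28 and 954 ± 30.5 CPM (log2 fold change -2.41). ZBTB16 was at 55.2, 48.2 and 54.7 CPM in MCF10A and had no count in HCT116, and DUSP1 had a log2 fold change of -5.35. ERRFI1, an inhibitor of EGFR, was higher in HCT116 (3.56). Cholera toxin raises cAMP. The 16 cAMP-responsive genes tested were split, with 6 higher and 6 lower in HCT116, PDE4D at -4.78 and NR4A1 at 4.36. All 4 metallothioneins tested, of 11 listed, were lower in HCT116, with MT2A at -3.49. Cholesterol and fatty acid synthesis genes were lower for 14 of 32 and higher for 3, with a median of -0.79. MSMO1, a sterol oxidase, was at -2.13 and HMGCS1, of the mevalonate pathway, at -1.40.

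HCT116 was described as p53-null. Of 38 direct p53 targets, 7 were higher and 7 lower in HCT116 (23.8% and 14.5% over all genes), with a median of -0.24. CDKN1A, which encodes the cell cycle inhibitor p21, was at 275, 326 and 352 CPM in HCT116 and 178, 177 and 159.8 CPM in MCF10A (log2 fold change 0.69, SE 0.077). MDM2, which targets p53 for degradation, was at 275, 267 and 259.8 CPM in HCT116 and at 295, 273 and 309 CPM in MCF10A, overlapping groups in CPM that were called on the normalized scale (log2 fold change -0.33, adjusted p = 2.3e-05). KITLG (6.22) and GDF15 (3.80) were higher in HCT116, and SPATA18 (-9.82) and FAS (-1.58) lower. In the 3 irradiated HCT116 libraries, CDKN1A was at 1508 to 1688 CPM and MDM2 at 655 to 747 CPM, each above all 3 non-irradiated HCT116 libraries. GDF15 was at 410.1 to 503 CPM there, also above them, whereas SPATA18 stayed at 0 to 0.171 CPM. CDKN1A, MDM2 and GDF15 are on the list of direct p53 targets. Whether the description as p53-null holds for these cells was not tested. No direction here is read from that description, and no test was made between irradiated and non-irradiated libraries.

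At the INK4 locus on chromosome 9, the genes from MTAP to CDKN2B had few or no counts in MCF10A. Of 7 genes of the locus and its flanks tested, 5 were called higher in HCT116, 4 of them by at least 2-fold, and 1, DMRTA1, was lower by at least 2-fold. CDKN2A, which encodes p16 and ARF (21967752 to 21995324), was at 17.4, 16.3 and 17.5 CPM in HCT116 and had no count in MCF10A, at least 562-fold higher. CDKN2B averaged 12.8 ± 1.25 CPM in HCT116 and also had no count in MCF10A. The neighbour MTAP (21802636 to 21941115), of methionine salvage, was at 267, 257 and 245 CPM in HCT116 and 0.265, 0.169 and 0.171 CPM in MCF10A (log2 fold change 10.08, SE 0.11). KLHL9, at the near end, was counted in both lines (75.6 ± 2.97 and 34.6 ± 2.62 CPM). Between KLHL9 and MTAP, MIR31HG averaged 1.98 ± 0.138 CPM in HCT116 and 1.71 ± 0.643 CPM in MCF10A. DMRTA1, at the far end, was low in both, at 0.0676 ± 0.0729 and 0.636 ± 0.196 CPM. The antisense gene CDKN2B-AS1 had no count in MCF10A either, and whether counting used strand is not given in the sources used here.

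Of 11 mismatch repair genes, 2 were lower in HCT116 by at least 2-fold (14.5% over all genes). Another 3 were called higher by less than that, and the list median was -0.12. MSH3, a mismatch recognition protein, averaged 7.48 ± 0.387 and 42.4 ± 1.78 CPM (log2 fold change -2.70). Among 39 proliferation genes 1 was higher and 1 lower by at least 2-fold, TK1, thymidine kinase (2.14), and AURKA, a mitotic kinase (-1.33), with a median of 0.18.

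Innate immune genes differed in both directions. Of 32 interferon-stimulated genes, 13 were higher and 2 lower in HCT116, with a median of 0.79. ISG15, a ubiquitin-like modifier, was at 55.1, 46.96 and 57.6 CPM in HCT116 and 1.65, 1.18 and 1.54 CPM in MCF10A, and HERC5, its ligase, had a log2 fold change of 7.08. Of 19 nucleic acid sensor and inflammasome genes, 10 were lower and 1 higher, with a median of -1.23. IFI16, a DNA sensor, was at 0.405, 0.684 and 0.290 CPM in HCT116 and 262, 267 and 267 CPM in MCF10A. CGAS, the sensor of cytosolic DNA, averaged 0.0622 ± 0.108 and 28.6 ± 1.26 CPM, and CASP1, the inflammasome caspase, was at 32.7, 35.4 and 35.3 CPM in MCF10A with no count in HCT116. No HCT116 library reached the level of any MCF10A library for these 3 genes, and the lines did not overlap for 77.7% of all genes tested.

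Of 23 interleukins, chemokines and related factors, 14 were lower and 4 higher, with a median of -4.81. IL1B was at 0.492, 0.622 and 0.471 CPM in HCT116 and 288, 324 and 326 CPM in MCF10A (log2 fold change -9.39, SE 0.11). IL1A (-9.00) and the neutrophil chemokine CXCL1 (-8.34) were lower as well, and LIF (2.45) was higher. C3, complement component 3, averaged 2.83 ± 0.00573 CPM in HCT116 and 815 ± 29.7 CPM in MCF10A. Of 18 genes of MHC class I presentation, 4 were higher and 4 lower (23.8% and 14.5% over all genes). HLA-B, for which reads may be shared with other HLA genes, had a log2 fold change of 1.91, and PSMB8, an immunoproteasome subunit, one of -6.47.

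Metabolic lists held genes of both directions. Of 31 hypoxia-responsive and glycolysis genes, 8 were higher and 2 lower (23.8% and 14.5% over all genes), with a median of 0.28. ENO2 was at 5.64 and CA12, a carbonic anhydrase, at -4.45. Of 26 NRF2 target and antioxidant genes, 4 were higher and 6 lower (23.8% and 14.5% over all genes), with a median of -0.31. AKR1C1 (-6.16) and AKR1C2 (-8.07), near-identical aldo-keto reductases whose reads may be shared, were lower in HCT116, and HMOX1, heme oxygenase, was higher (2.68). Of 25 drug and xenobiotic metabolism genes, 9 were higher and 4 lower, with CYP24A1, which degrades active vitamin D, at 194 ± 33.96 CPM in HCT116 and 0.872 ± 0.120 CPM in MCF10A and ALDH3A1 at -6.37. Of the 13 mitochondrially encoded protein genes, 11 were called higher, 1 of them by at least 2-fold, and MT-ATP8 (0.25) and MT-CO1 (0.042) were not called.

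Of 44 MAGE and other cancer-testis genes, 9 could be tested, and 4 of these had no count in MCF10A. Those passed the filter on low counts through HCT116 alone, so their direction was fixed. Of the 9, 4 were higher in HCT116 by at least 2-fold and 2, MAGED1 and MAGED2, were called lower by less than that. Besides MAGEB2 the higher ones included MAGEA3 (73.8 ± 3.17 CPM) and PRAME (39.4 ± 1.68 CPM), without counts in MCF10A, and MAGEA3 shares sequence with MAGEA6 and MAGEA2. Of 15 imprinted genes, 5 were higher and 2 lower (23.8% and 14.5% over all genes). IGF2 averaged 12.7 ± 3.00 CPM in HCT116 and 0.00939 ± 0.0163 CPM in MCF10A. A stretch of chromosome 11 next to the beta-globin genes, chosen after its values were seen, had its counts almost wholly in HCT116. Between HBG2 and OR52D1 (5253188 to 5489749) the tables hold 17 genes and pseudogenes that lie wholly inside, mostly of the OR51 olfactory receptor family, and 16 had at least 1 CPM in HCT116. They summed to 11978 counts over the 3 HCT116 libraries and had no count in MCF10A. OR51B4 was at 33.7, 31.7 and 31.6 CPM in the HCT116 libraries and OR51I2 at 22.9, 19.6 and 11.01 CPM. OR51B5 (5340318 to 5505652), annotated as a longer gene, spans OR51B6 to OR52D1 and was at 77.5, 83.7 and 76.2 CPM in HCT116, with 4 counts in all in MCF10A. How reads were divided between it and the shorter entries was not tested, so their counts are uncertain.

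Among genes with larger changes present at 1 CPM or more in both lines, CRABP2, a retinoic acid carrier, averaged 242 ± 14.9 CPM in HCT116 and 2.81 ± 0.298 CPM in MCF10A. ELF3, an epithelial ETS factor, had a log2 fold change of 5.85, ACSL5, an acyl-CoA synthetase, one of 6.06 and NTSR1, the neurotensin receptor, one of 5.79. Also named, at 10 CPM or more in both lines, were AKAP12, a scaffold for protein kinase A, at 4588, 5131 and 4967 CPM in HCT116 and 82.4, 76.1 and 83.8 CPM in MCF10A, and PDP1, pyruvate dehydrogenase phosphatase, at 1575, 1597 and 1608 CPM in HCT116 and 56.9, 55.2 and 57.5 CPM in MCF10A. All HCT116 libraries stood above all MCF10A libraries for each of these genes. For CRABP2, ELF3, ACSL5 and NTSR1 the naming rule required this, and the lines did not overlap for 77.7% of all genes tested.

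**Figure D4:**
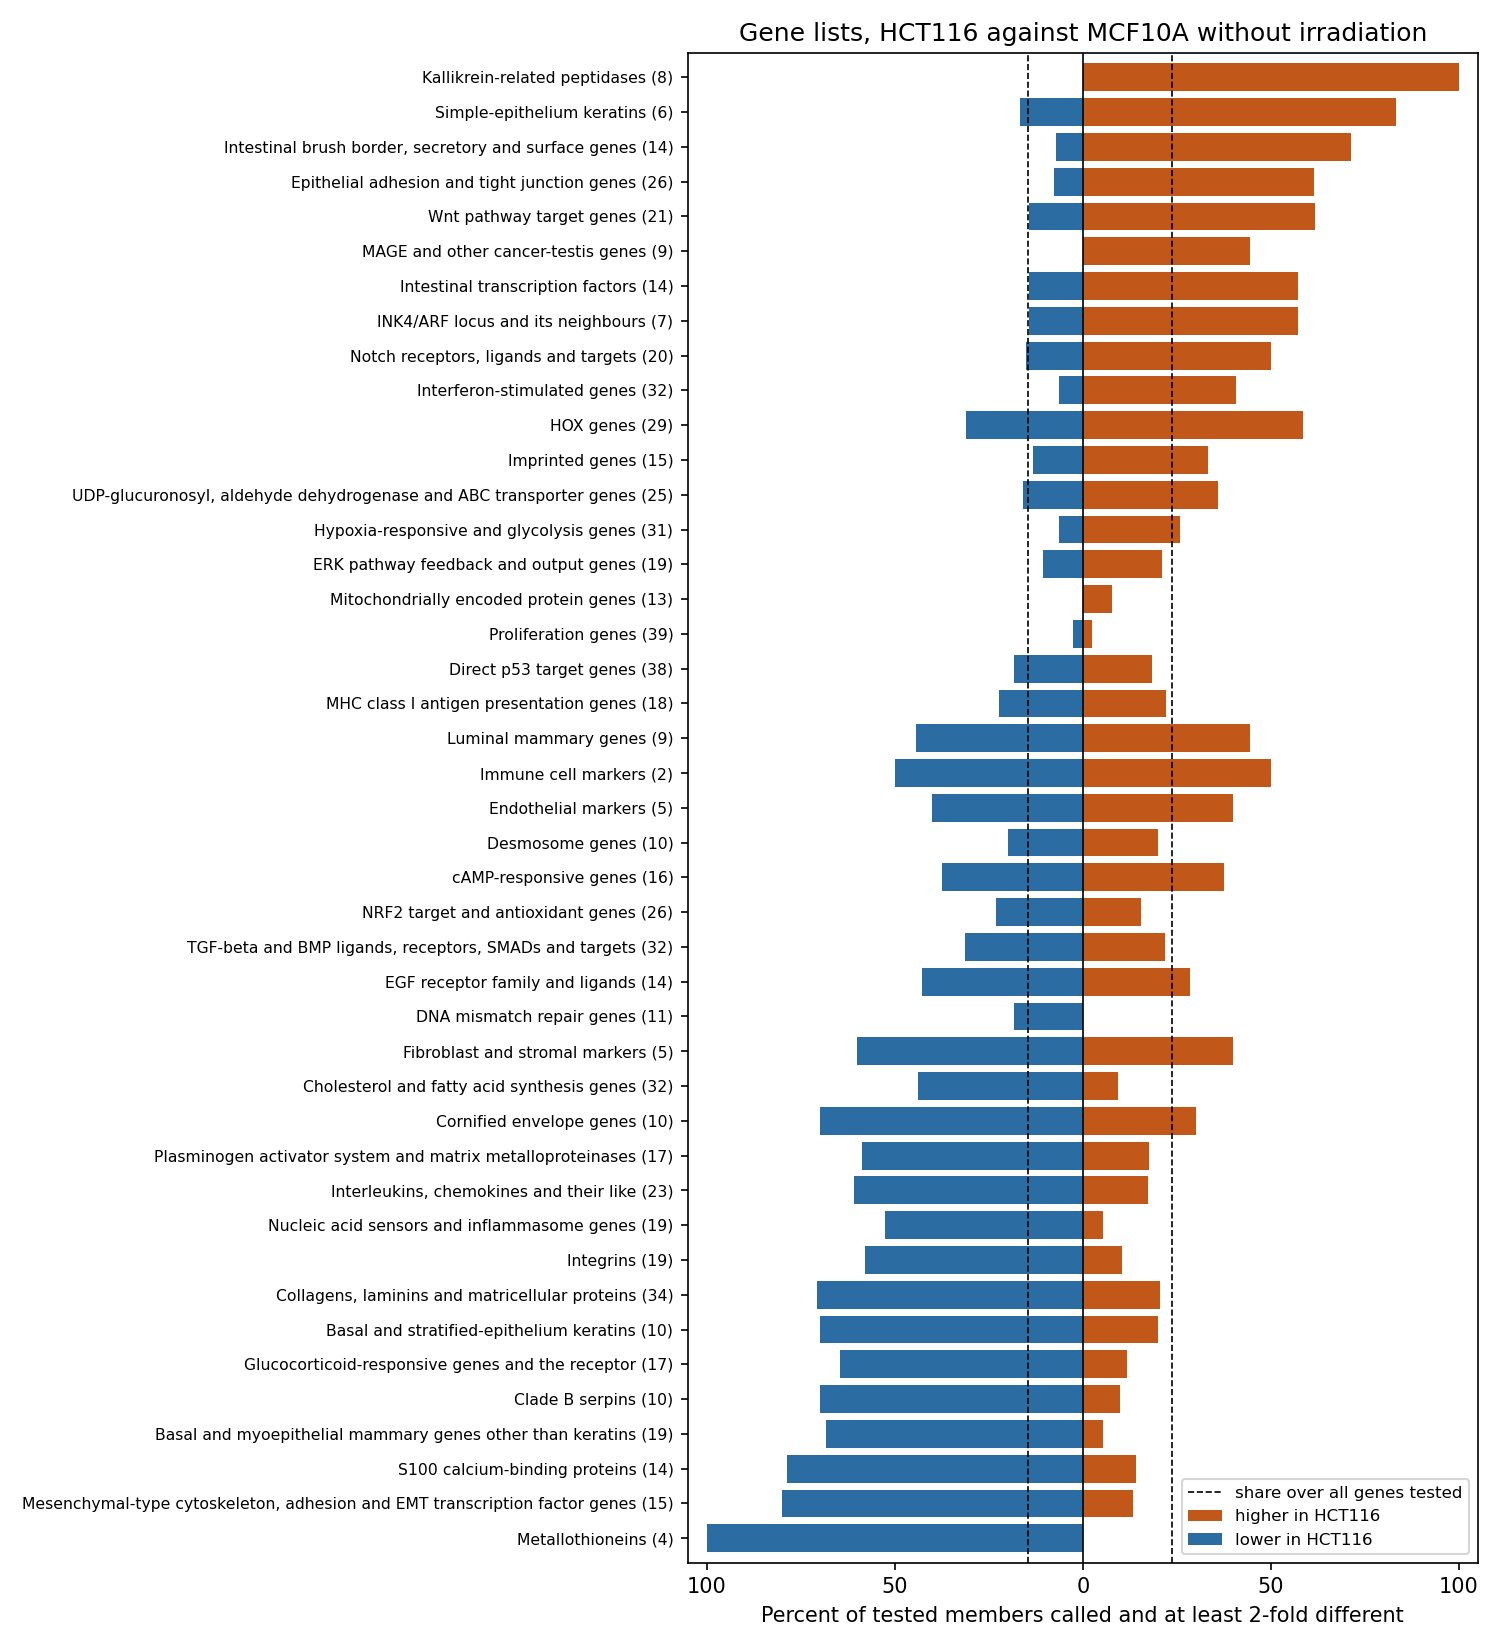
Percent of the tested members of 43 gene lists that were called and at least 2-fold higher (orange) or lower (blue) in HCT116, with the number of members tested in brackets and dashed lines at the shares over all genes (23.8% higher and 14.5% lower). Kallikreins and simple keratins are at the top, and metallothioneins and mesenchymal-type genes at the bottom.

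Markers of other cell types were checked as lists. Of 10 immune cell markers, 2 could be tested and the list summed to 1.16 to 1.97 CPM in the HCT116 libraries and 3.48 to 4.00 CPM in the MCF10A libraries. CD3E and CD3D had no count in any of the 6 libraries, and MS4A1, CD68, LYZ and HBB had none in MCF10A. Of 8 endothelial markers, 5 could be tested, 2 higher and 2 lower, and sums were 11.8 to 12.8 and 3.94 to 4.06 CPM. Of 10 fibroblast and stromal markers, 5 could be tested, 2 higher and 3 lower, and sums were 39.4 to 47.5 and 169.8 to 184 CPM. The 3 lower markers had no count in HCT116 and passed the filter on low counts through MCF10A alone, so their direction was fixed. The MCF10A sum held DCN, decorin (113, 126 and 118 CPM), and FAP (48.4, 50.6 and 52.8 CPM), both without counts in HCT116, while COL1A1 was higher in HCT116 (2.50). COL3A1 had no count in MCF10A, and LUM, PDGFRA and POSTN had none in HCT116. In bulk libraries, fewer cells of a type and less RNA per cell cannot be told apart. The part of other cells in these differences was not tested.

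Differences also varied along the genome. Over 11748 genes at 5 CPM or more in a line, the median log2 fold change was -0.08 and 45.7% of genes were higher in HCT116. Chromosome 17 had a median of 0.44 (67.8% of 708 genes higher) and chromosome 19 one of 0.22. Chromosome 20 had a median of -0.57 (25.8% of 329 genes higher), chromosome 5 one of -0.41 and chromosome 1 one of -0.32. Quartiles of these chromosomes overlapped. These chromosomes and the stretches below were singled out after their values were seen, and no test was made.

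In runs of 41 neighbouring genes, the 5th and 95th percentiles of 10828 run medians were -0.64 and 0.48. The run with the highest median, 1.66, lay on chromosome 17 from TBKBP1 to COL1A1 (47694063 to 50201631), where 39 of 41 genes were higher in HCT116. It holds 9 HOXB cluster entries, and its median without them was 0.95. The run with the lowest median, -1.50, lay on chromosome 1 from RBBP5 to SLC30A1 (205086142 to 211579161), where 33 of 41 genes were lower. On chromosome 20 the lowest run had a median of -0.98 from ATRN to SNORD17 (3471018 to 17968794), with 36 of 41 genes lower. None of the 289 runs of chromosome 20 and none of the 500 runs of chromosome 5 had a median above 0. Neighbouring runs share most of their genes, so these are not counts of separate stretches. DNA copy number was not measured here.

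**Figure D5:**
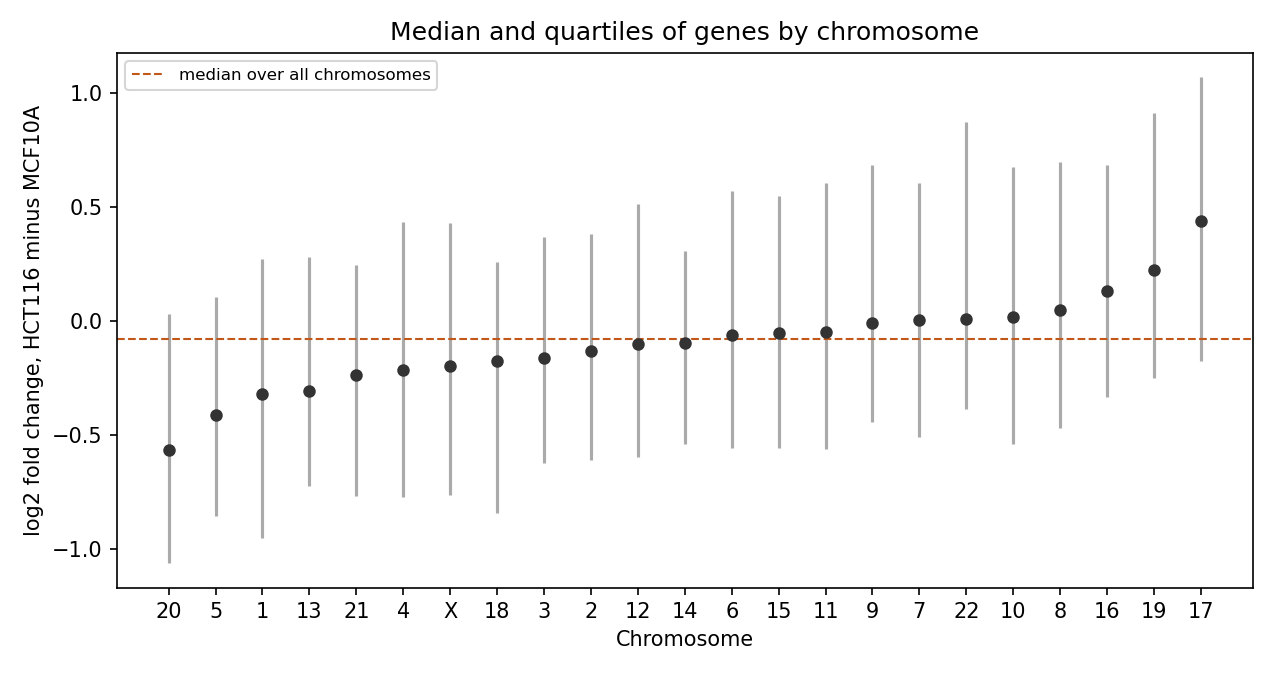
Median (points) and quartiles (bars) of the log2 fold change, HCT116 minus MCF10A, for genes at 5 CPM or more in a line, by chromosome in order of the median. The dashed line is the median over all chromosomes, -0.08, and chromosomes 20 and 17 are at the ends.

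The irradiated monocultures of the same lines, 3 libraries each, gave a second comparison of the lines on other libraries, in which 74.9% of 16932 genes were called. Of the 12389 genes called without irradiation, 12067 could be tested there, and 9437 (78.2%) were called in the same direction and 693 (5.74%) in the opposite one. Among the genes of at least 2-fold, 5352 of 6024 (88.8%) were called in the same direction and 58 (0.963%) in the opposite one. All 97 and all 80 genes found in 1 line only were called in the same direction. Absence of counts was less complete in those libraries: 34 of the 97 had no count in irradiated MCF10A and 42 of the 80 none in irradiated HCT116. KRT19 averaged 1549 CPM in irradiated HCT116 and 0.244 CPM in irradiated MCF10A. TGFBI averaged 0.234 and 3299 CPM, and CDX2 12.6 CPM, with no count in irradiated MCF10A.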

How the data were processed

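Poly(A)-selected RNA was sequenced as stranded, paired-end libraries, per the series text. The authors deposited raw counts per gene symbol, 1 table per library. Their processing notes name fastp, STAR, featureCounts and GRCh38. Versions, annotation and the counting of mates are not given in the sources used here. Of the counts from 1 to 10, 68.6% were even (9310 values of 2 against 4040 of 1), so counting error was not taken from the counts alone. Of 40916 symbols, 14030 had no count in the 6 libraries and 10318 were too low to test (filterByExpr).

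The 16568 remaining genes were tested with edgeR 4.0.16 in R 4.3.3 (TMM, quasi-likelihood, 2-sided, Benjamini-Hochberg over all of them), without a block, on the 6 libraries. The irradiated lines were fitted in the same way. On simulated data (14774 genes), the test recovered 99% of 100 genes changed 2-fold and 100% of 100 changed 4-fold, with 17 false calls. Both groups had the MCF10A profile and 1 common dispersion there, and far fewer genes changed than in the real libraries. The simulation therefore cannot tell how well changes are recovered when most genes differ. CPM were computed as a gene's counts divided by the library's total and multiplied by 1e+06. No library was a copy of another, with a chi-squared per gene of 6 to 14 between replicates.

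Members and the 43 gene lists were chosen with earlier results of these data known. Named were 30 identity genes, and by rule the 6 highest genes per direction without counts in the other line. The rule also took the 6 and 3 largest changes at set levels in both lines. The 6 were drawn only from called genes whose libraries did not overlap. Up to 4 called members per list and direction were added, at 5 CPM or more in the higher line. Other genes named are list members, and some genes that the rule or the lists hold are not reported here. RefSeq (GRCh38.p14) gave names, positions and start regions and matched 16381 of the tested symbols. Alternatives were other scalings, no filter, DESeq2 1.42.0, a replicate block, all 18 libraries, halved counts, no mitochondrial and top 10 genes, and leaving out each library.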

Additional observations from a re-analysis of the deposited data

How the results depend on the processing

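Counts of genes called higher or lower without irradiation stayed within 1.5 times of the reported ones under each alternative run. Of 1290 counts of gene lists under alternatives, 1263 were rated as the same and 27 as moved. Genes higher in HCT116 numbered 6131 to 6472 and genes lower 5767 to 6011 when each library was left out in turn. Upper-quartile factors gave 7807 higher and 4704 lower, and DESeq2 gave 6335 and 5862. The correlation of deviations between same-numbered libraries was -0.0505, -0.00547 and -0.0562, and between the other pairs it was -0.00445 to 0.0533. With 3 libraries a line, these values cannot tell whether a number marks a shared day or batch. With replicate number as a block, 6033 genes were higher and 5774 lower, and the calls of BTC (adjusted p = 0.0945) and PER1 (adjusted p = 0.0548) were lost. With a level of at least 5 CPM in place of 10, 152 genes were found in HCT116 only and 122 in MCF10A only, and with at least 20 CPM 45 and 48. Asking for at least 2-fold, 4656 of the genes were called in the same direction in the irradiated libraries, since fewer genes qualify. Of 4225 values of named genes under alternatives, 4210 kept their direction and side of the threshold and 15 kept their direction but were no longer called. The calls of ESRP2, FOSL1, BTC and PER1 were lost under some alternatives, and the cause was not tested. The list medians of EGF family, TGF-beta, mismatch repair, proliferation, cAMP-responsive, MHC class I and p53 target genes, and the median of chromosome 19, are smaller in size than the 0.25 to which upper-quartile factors moved the median of all genes. With 3 libraries a group, no single-value permutation test can fall under 0.10.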
